A study of Mus musculus with 50 samples.

Results

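A set of imprinted genes was followed in RNA-seq of mouse embryonic stem (ES) cells and epiblast-like cells, as 35 gene symbols taken from the well-known imprinted clusters of the mouse and looked up by symbol in each of 4 expression tables. The table of hairpin-carrying V6.5 cells listed 32 of the 35 among its 17043 genes, and each of the other 3 tables listed all 35 among 55421 genes. A gene was tested where 2 or more libraries of its table reached a value of 1, which held for 25 of the 35 in the V6.5 hairpin table, 27 in the QKO table, 32 in the control time course table and 32 in the knockdown epiblast-like table. In the V6.5 hairpin table Airn, Rasgrf1 and Peg13 were not listed, and that table holds 0 values of exactly 0. Zim1, Ascl2, Dlk1, Usp29, Nap1l5, Nnat and Kcnq1ot1 were too low to test. Rasgrf1 and Kcnq1ot1 were tested in none of the 4 tables.

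An imprinted gene is transcribed mainly or only from the copy inherited from 1 parent. The choice is carried by DNA methylation laid down in egg or sperm at an imprinting control region, and kept after fertilization by the zinc finger protein ZFP57 with TRIM28 and the maintenance methyltransferase DNMT1. In each cluster a control region can govern several genes at once, for instance through a long noncoding RNA that keeps its neighbours silent in cis. Many imprinted genes act on growth, such as the growth factor gene Igf2, its receptor gene Igf2r, the signalling adaptor gene Grb10 and the cell cycle inhibitor gene Cdkn1c. ES cells kept in 2i, a defined medium with inhibitors of MEK and GSK3, are known for low global DNA methylation, and methylation rises as they become epiblast-like cells.

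The V6.5 line was used without a hairpin in 2i medium (2 libraries) and, per the labels, as epiblast-like cells (epiLC) kept in epiLC medium for 24 or 48 h (2 libraries each), all in 1 table. A second table held V6.5 epiLC with a hairpin against β-catenin, named shBcat, collected after 24, 48 or 96 h, beside 96 h epiLC as controls (2 libraries each). No hairpin is named for the control epiLC. Another table held V6.5 cells in 2i medium with the control hairpin shGFP (6 libraries), with shBcat, with shE2F6 against the repressor gene E2f6, or with shHP1r (2 libraries each). The last held QKO ES cells in 2i medium with shBcat or shGFP and 48 h in their titles (3 libraries each). The labels do not spell out QKO, the start of those 48 h or the genes altered in that line. Whether replicates were grown as separate cultures is not stated, so the spread behind every p-value may be technical.

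The V6.5 hairpin table gives FPKM (fragments per length of transcript and size of library) and the other tables give TPM (the share of each transcript, with 1 common total for all libraries), so levels were compared between genes only within a table and tested only within a table. Changes are given on the log2(value + 1) scale with the standard error (SE) of the limma fit, and "higher" and "lower" are used for an adjusted p under 0.05. That scale understates the change of genes at low values, so ratios of group means are given beside it. The values add both parental copies together: they measure output of the locus and not which copy was read. Library preparation is not stated to keep strand. Reads of Airn and of Igf2r, which overlap on opposite strands, can therefore not be told apart where they overlap, and the same holds for Kcnq1ot1 inside Kcnq1 and Nnat inside Blcap. Mcts2, Nap1l5 and Zrsr1 arose as retrocopies of other genes and may share reads with them. In bulk RNA, fewer cells that express a gene and less RNA per cell cannot be told apart.

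The stretch around the start site is where many of these loci carry their methylation mark, and its sequence is shown for 4 members described at length below whose windows held the motif searched for here. RefSeq promoter windows on GRCm38.p6, 300 bases long with 250 before and 50 after the start, were at hand for 29 of the 35 genes, in 43 windows. Each was searched on both strands for TGCCGC, the core bound by ZFP57 when its CpG is methylated, whose reverse complement is GCGGCA. The capitals in the sequences below mark that core. The genes Mest and Grb10 have 3 and 2 windows, of which the 1 shown is rich in CpG and holds the core. Plagl1 and Nnat have 1 each. The window of Plagl1 lies on the plus strand at chr10:13090582-13090881, that of Mest on the plus strand at chr6:30737800-30738099, that of Nnat on the plus strand at chr2:157559828-157560127 and that of Grb10 on the minus strand at chr11:12037371-12037670.
Plagl1: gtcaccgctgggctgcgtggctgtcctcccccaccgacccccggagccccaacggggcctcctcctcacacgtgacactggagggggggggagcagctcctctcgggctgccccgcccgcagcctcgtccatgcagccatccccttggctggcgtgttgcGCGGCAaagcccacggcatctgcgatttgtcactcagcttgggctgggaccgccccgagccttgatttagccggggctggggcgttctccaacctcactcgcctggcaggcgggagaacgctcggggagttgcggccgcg
Mest: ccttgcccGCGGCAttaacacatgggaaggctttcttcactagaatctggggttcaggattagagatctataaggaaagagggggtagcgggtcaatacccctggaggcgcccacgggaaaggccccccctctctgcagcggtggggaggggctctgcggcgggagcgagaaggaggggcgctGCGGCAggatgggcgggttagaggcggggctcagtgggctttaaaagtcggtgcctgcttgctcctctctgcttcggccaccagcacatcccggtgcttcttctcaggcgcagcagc
Nnat: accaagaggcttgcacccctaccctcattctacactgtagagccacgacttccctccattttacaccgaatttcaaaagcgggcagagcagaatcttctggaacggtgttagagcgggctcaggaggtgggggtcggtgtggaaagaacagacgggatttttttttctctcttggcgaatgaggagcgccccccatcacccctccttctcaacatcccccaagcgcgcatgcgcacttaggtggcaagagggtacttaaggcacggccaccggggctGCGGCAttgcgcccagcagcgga
Grb10: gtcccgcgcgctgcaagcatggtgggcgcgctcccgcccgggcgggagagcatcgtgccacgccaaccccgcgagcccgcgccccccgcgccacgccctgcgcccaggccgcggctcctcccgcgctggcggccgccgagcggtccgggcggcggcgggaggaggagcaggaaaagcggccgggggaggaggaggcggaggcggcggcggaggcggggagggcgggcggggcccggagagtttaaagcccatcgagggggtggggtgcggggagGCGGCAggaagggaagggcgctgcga
The 4 windows are rich in CpG, with 26 in Plagl1, 17 in Mest, 17 in Nnat and 45 in Grb10, against a median of 7 over all 32851 windows of the table. The Mest window shown held 2 matches to the core and the other 3 windows 1 each. Another Mest window, 3 bases further on, held the same number, while the remaining Mest window (8 CpG) and the other Grb10 window (9 CpG) held 0. Igf2, with 4 windows, had 1 match in 1 of them and is not shown. Over the members, 12 of the 43 windows (27.9%), belonging to 11 genes, held the core, against 11.6% of all windows. The median member window had 14 CpG, and among the 11920 windows of the table with at least 14 CpG the share with the core was 24.7%. The matches describe these letters only and are not binding sites. The Peg3 and Usp29 windows face each other and share 263 bases, so the 2 genes start from the same stretch in opposite directions.

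Several members are also hosts of microRNAs, small RNAs that these libraries do not measure and whose levels are not analysed here. By RefSeq coordinates the H19 gene (chr7:142575530-142578146) holds 1 hairpin, Mest (chr6:30733506-30748466) holds 1, Rian (chr12:109603945-109661716) holds 3 and Mirg (chr12:109734981-109749458) holds 10. Igf2 and Meg3 also hold 1 hairpin each. The mature products of H19 and Mest are shown because the levels of these hosts are described at length below. Capitals mark the seed, bases 2 to 8.
mmu-miR-675-5p: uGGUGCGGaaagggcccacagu
mmu-miR-675-3p: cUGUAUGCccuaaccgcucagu
mmu-miR-335-5p: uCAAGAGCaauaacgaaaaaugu
mmu-miR-335-3p: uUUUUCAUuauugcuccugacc
None of the 4 seeds is shared with another of the 4.

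Each hairpin's target was low where the labels place it. The β-catenin gene Ctnnb1 was at 6.60 ± 0.0212 FPKM (SD, n = 2) in V6.5 shBcat against 116 ± 20.3 (n = 6) in shGFP, at 64.4 ± 17.1 TPM in QKO shBcat against 505 ± 20.2 (n = 3 each), and at 144 ± 2.15 TPM in 96 h shBcat epiLC against 445 ± 4.56 (n = 2 each). E2f6 was at 3.06 ± 0.686 FPKM in shE2F6 (n = 2) against 10.0 ± 0.819 in shGFP (n = 6), and Cbx3, the gene of HP1 gamma, at 6.92 ± 0.46 in shHP1r against 63.5 ± 5.88. The 10 naive ES markers summed to between 1410 and 1420 TPM in 2i and between 238 and 293 in control epiLC, while 7 epiblast-like markers summed to 36 and 38 in 2i and to between 261 and 529 in control epiLC. Mitochondrial transcripts took 19.3% to 22.9% of the summed FPKM in shGFP libraries 3 and 4 and both shE2F6 libraries, and 6.23% to 10.3% in the other libraries of that table. Depth is unknown for every library.

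In untreated V6.5 cells in 2i medium the most abundant members were 2 noncoding RNAs of the Dlk1-Meg3 cluster. Rian stood at 265 ± 0.46 TPM and Meg3 at 228 ± 10.4 (SD, n = 2), followed by Gnas, the gene of the stimulatory G protein alpha subunit, at 171 ± 1.56. Below them came Impact, a regulator of translation, at 101 ± 1.28, Plagl1, a zinc finger transcription factor, at 96.9 ± 2.57 and Peg10, derived from a retrotransposon, at 86.1 ± 3.8. None of these 6 genes had libraries that overlapped with those of its neighbour in that order, the closest being Impact at 100.55 and 102.36 TPM and Plagl1 at 95.04 and 98.68. At the other end, Nnat, Nap1l5, Magel2, Zim1, Airn, Kcnq1ot1, Rasgrf1 and Peg13 each stayed under 1 TPM in both 2i libraries. The order at the top did not hold in the V6.5 hairpin table, also from 2i medium. There the shGFP libraries had Meg3 at 5.11 to 9.51 FPKM, Rian at 7.37 to 13.5 and Gnas at 7.51 to 12.7. All 3 lay under Plagl1 (17.9 to 28.1), Peg10 (28.5 to 57.1) and Impact (43.1 to 47.8).

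Most imprinted genes changed as control V6.5 cells passed from 2i to epiLC medium, and by 48 h nearly all that changed were higher. At 24 h against 2i, 16 of 32 tested members (50%) were higher and 12 (37.5%) lower, against 36.2% higher and 39.8% lower among all 16559 genes tested. From 24 to 48 h, 24 (75%) were higher and 6 (18.8%) lower, against 45.2% and 28.9% of all genes. At 48 h against 2i, 27 (84.4%) were higher and 4 (12.5%) lower, against 45.1% and 30.8% of all genes. Airn and Zim1 reached 1 TPM only at 48 h and were tested only through that group, so they had to differ. Without them 22 members were higher from 24 to 48 h and 25 from 2i to 48 h. The members' median log2 changes were 0.26, 0.82 and 1.16 in these 3 comparisons, beside -0.04, 0.12 and 0.11 over all genes tested. Each of the 3 groups serves 2 of these comparisons, which therefore share libraries.

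**Figure D1:**
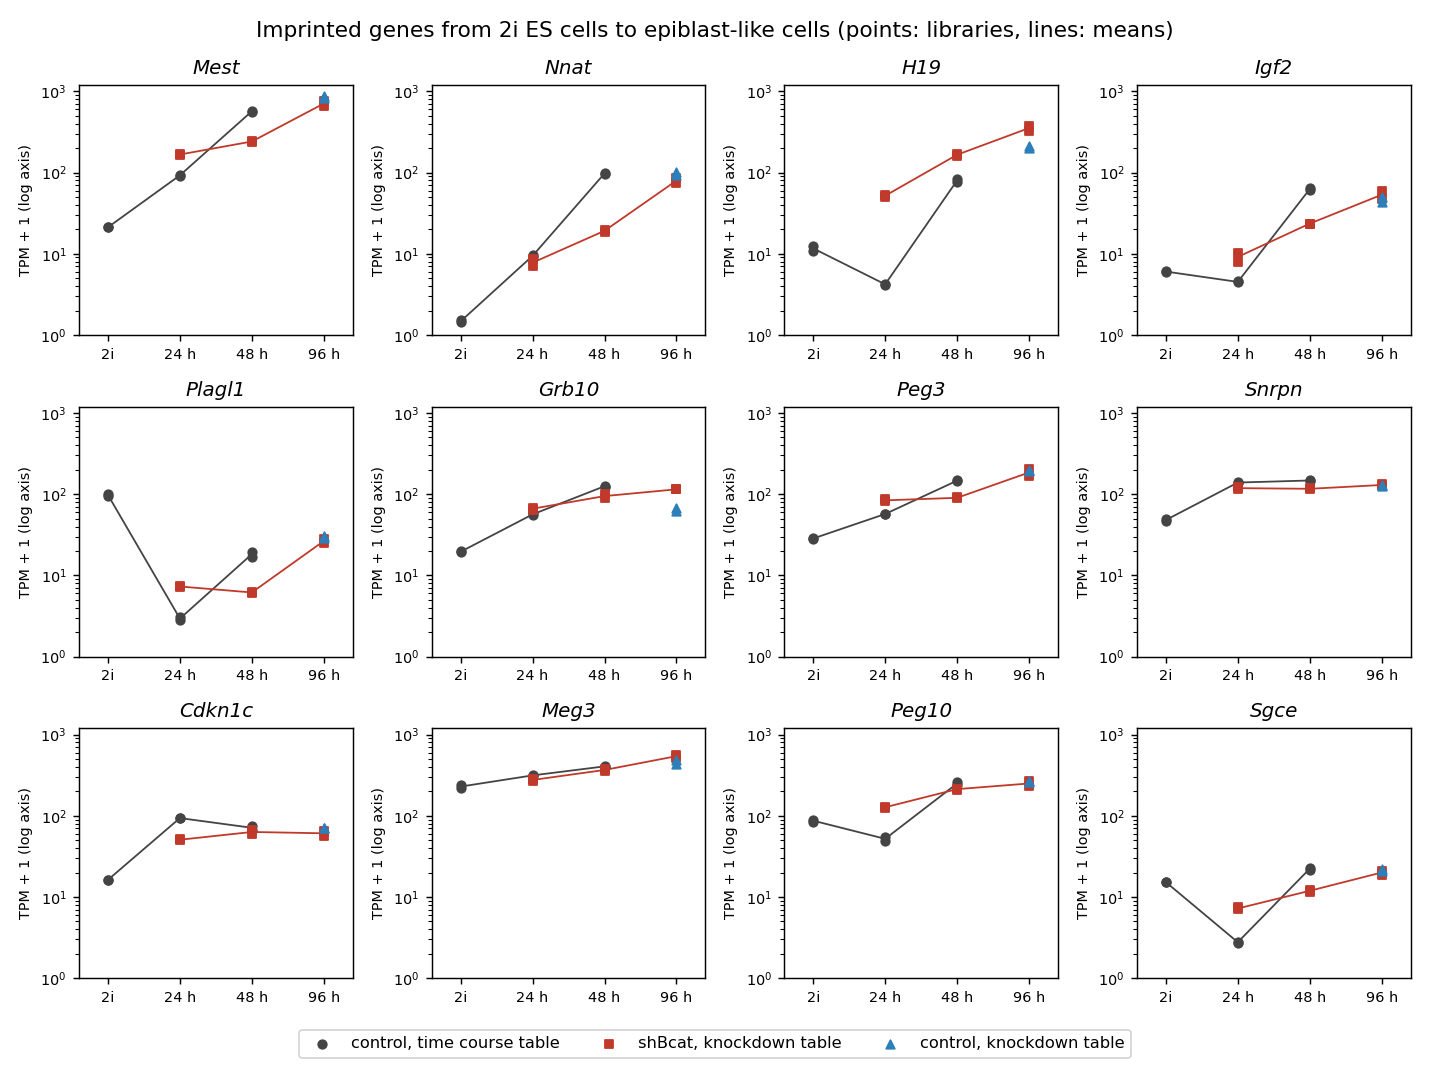
Levels of 12 imprinted genes in each library, as TPM + 1 on a log axis, in 2i cells and at 24, 48 and 96 h of epiLC culture. Points are libraries and lines join group means; the control time course (black) and the knockdown table (red shBcat, blue 96 h control) were normalized separately. Mest and Nnat climb at every step in the controls, while H19, Igf2, Plagl1, Peg10 and Sgce are lowest at 24 h.

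Mest, an alpha/beta hydrolase gene read from the paternal copy, showed one of the widest ranges of the whole set. Its 2 libraries stood at 20.07 and 20.33 TPM in 2i, at 92.4 and 90.69 at 24 h and at 572 and 563 at 48 h. The groups did not overlap, and each step was upward. The level rose 4.53-fold to 24 h (log2 change 2.13, SE 0.03, adjusted p = 2.81e-08) and 6.2-fold from 24 to 48 h (log2 change 2.62, SE 0.03, adjusted p = 7.39e-08).

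Nnat, a small membrane proteolipid gene named for its expression in the newborn brain, went from near absence to abundance. It was at 0.43 and 0.51 TPM in 2i, 8.61 and 8.22 at 24 h and 96.3 and 96.7 at 48 h. All 3 groups were apart. The log2 change was 2.68 (SE 0.05, adjusted p = 1.04e-07) to 24 h and 3.37 (SE 0.05, adjusted p = 1.32e-07) from 24 to 48 h.

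The H19-Igf2 cluster dipped before it rose. H19, a maternally read long noncoding RNA, was at 11.6 and 9.71 TPM in 2i, at 3.18 and 3.23 at 24 h and at 75.9 and 82.4 at 48 h. Igf2, the paternally read growth factor gene next to it (chr7:142650768-142666816), was at 5.08 and 5 TPM in 2i, at 3.45 and 3.56 at 24 h and at 60.4 and 62.9 at 48 h. Both genes were lowest at 24 h and highest at 48 h, with no overlap between the groups. H19 fell by 1.47 on the log2 scale to 24 h (SE 0.08, adjusted p = 5.37e-06) and then rose 24.7-fold (log2 change 4.25, SE 0.08, adjusted p = 1.94e-07). Igf2 fell by 0.42 (SE 0.05, adjusted p = 0.000204) and then rose 17.6-fold (log2 change 3.8, SE 0.05, adjusted p = 7.92e-08). H19 and Igf2 are read from opposite parental copies, and both moved the same way at both steps.

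Plagl1 was the member that lost most on leaving 2i. It stood at 98.7 and 95.0 TPM in 2i, at 1.81 and 2.07 at 24 h and at 18.5 and 16.02 at 48 h. The 24 h libraries lay far under both other groups, and the 48 h libraries stayed under those of 2i. The change was -5.06 (SE 0.08, adjusted p = 4.93e-08) to 24 h, 2.63 (SE 0.08, adjusted p = 5.9e-07) from 24 to 48 h and -2.42 (SE 0.08, adjusted p = 3.98e-07) over the whole course, on the log2 scale.

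Peg10 and Sgce lie head to head on chromosome 6 and are both paternally read. Peg10 went from 88.8 and 83.4 TPM in 2i to 54.6 and 47.55 at 24 h and 257 and 242 at 48 h. Sgce, which encodes epsilon-sarcoglycan, went from 14.3 and 14.3 TPM to 1.75 and 1.8 and then to 21.9 and 20.7. Both were lowest at 24 h without overlap. The log2 change from 24 to 48 h was 2.27 (SE 0.07, adjusted p = 1.17e-06) for Peg10 and 3.01 (SE 0.05, adjusted p = 1.52e-07) for Sgce.

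The Dlk1-Meg3 cluster on chromosome 12 rose as a block at 24 h, with 4 of 4 members higher. Dlk1, the paternally read gene of a Notch-like membrane protein, was at 1.09 and 1.12 TPM in 2i, 10.15 and 9.91 at 24 h and 7.17 and 7.74 at 48 h. It was the member of the cluster with the largest relative change, 9.08-fold to 24 h (log2 change 2.39, SE 0.07, adjusted p = 3.12e-07), followed by a fall of 0.38 (SE 0.07, adjusted p = 0.00178). The 3 maternally read noncoding RNAs climbed at both steps. Meg3 was at 221 and 235 TPM, then 318 and 309, then 400.1 and 410.2; Rian at 265 and 264, then 397 and 398, then 542 and 524; and Mirg at 18.8 and 19.2, then 44.6 and 44.3, then 58.5 and 59.7. No 2 groups overlapped for any of the 3. Over the whole course Mirg rose 3.11-fold, Rian 2.01-fold and Meg3 1.78-fold (log2 changes 1.59, 1.01 and 0.83, SE 0.03, 0.03 and 0.04, each adjusted p at most 1.74e-06).

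In the Peg3 cluster on chromosome 7, Peg3 and Usp29 were higher at 48 h than in 2i. Peg3, a paternally read zinc finger gene, was at 27.8 and 27.2 TPM in 2i, 55.8 and 56.3 at 24 h and 149 and 142 at 48 h. Usp29, which starts in the opposite direction from the same 263 bases, was at 2.1 and 1.58, then 2.95 and 2.55, then 5.93 and 5.68. Zim1, a maternally read zinc finger gene beside them, ended at 1.18 and 1.3 TPM from 0.6 and 0.44, and passed the minimum only through its 48 h libraries. Peg3 rose 5.31-fold over the course (log2 change 2.37, SE 0.03, adjusted p = 2.39e-08) and Usp29 3.15-fold (log2 change 1.27, SE 0.11, adjusted p = 4.39e-05). The Usp29 call at 24 h was lost without 2i replicate 2 (adjusted p = 0.062) or 24 h replicate 1 (adjusted p = 0.0747).

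In the Snrpn cluster the genes kept different times. Snrpn, the gene of a spliceosome protein, was at 46.2 and 47.9 TPM in 2i, 138 and 138 at 24 h and 148 and 145 at 48 h. Nearly all of its rise fell in the first day: 2.93-fold (log2 change 1.53, SE 0.03, adjusted p = 8.71e-08), against 0.08 (SE 0.03, adjusted p = 0.0373) in the second. That second step lost its call without any 1 of the 4 libraries (adjusted p from 0.0736 to 0.154), and it turned to -0.05 with median-of-ratios scaling. Magel2 also rose by 24 h, from 0.29 and 0.28 TPM to 1.26 and 1.2. Peg12 (2.23 and 1.8 TPM in 2i) and Mkrn3 (3.86 and 3.55) instead fell by 24 h, to 1.03 and 1.12 and to 2.08 and 1.93, and stood at 7.73 and 7.6 and at 4.69 and 4.72 at 48 h. Ndn, a growth suppressor gene of the MAGE family, did not pass the test at 24 h (5.0 ± 0.099 against 4.54 ± 0.0354 TPM, adjusted p = 0.125) and was higher at 48 h, at 10.8 and 10.3 TPM. Mkrn3 over the whole course rested on 2i replicate 2 and 48 h replicate 2, without which its adjusted p was 0.0663 and 0.0527.

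The growth restrainers of the Kcnq1ot1 cluster rose early and then slipped back. Cdkn1c was at 15.3 and 15.2 TPM in 2i, at 91.7 and 93.9 at 24 h and at 74.1 and 66.3 at 48 h. Phlda2, a pleckstrin homology domain gene that limits placental growth, was at 18.7 and 16.9 TPM, then 49.7 and 50.3, then 44.5 and 45.5. Both were highest at 24 h without overlap. Cdkn1c rose by 2.53 (SE 0.05, adjusted p = 1.2e-07) and then fell by 0.4 (SE 0.05, adjusted p = 0.000451) on the log2 scale. The later fall of Phlda2, -0.15 (SE 0.05, adjusted p = 0.0319), was lost without any 1 of the 4 libraries (adjusted p from 0.0747 to 0.127). Ascl2, a trophoblast transcription factor gene, was at 1.64 and 1.73 TPM in 2i and 1.45 and 1.57 at 24 h, a change that did not pass (adjusted p = 0.287), and fell to 0.39 and 0.36 at 48 h (log2 change -0.87, SE 0.08, adjusted p = 5.64e-05). Slc22a18, a transporter gene, fell from 1.94 and 1.86 to 0.4 and 0.4 TPM and came back to 1.02 and 1.35.

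Among the clusters with 1 or 2 members, Grb10 rose at each step, from 18.9 and 18.2 TPM to 57.1 and 53.7 and then 122 and 127 (log2 change over the course 2.68, SE 0.04, adjusted p = 3e-08). Igf2r, the maternally read receptor that clears IGF2, dipped to 13.1 and 12.3 TPM at 24 h from 22.9 and 22.7, and reached 30.4 and 30.8 at 48 h. Airn, the noncoding RNA across it, was low throughout and followed the same order, at 0.54 and 0.69, 0.3 and 0.2, and 1.83 and 2.48 TPM, so that only its 48 h libraries brought it past the minimum. Its 24 h call was lost without 2i replicate 2 (adjusted p = 0.127), 24 h replicate 1 (0.0532) or 24 h replicate 2 (0.127). Gnas did not pass at 24 h (182 ± 7.21 against 171 ± 1.56 TPM, adjusted p = 0.0629) and was at 499 and 522 TPM at 48 h (log2 change from 24 h 1.48, SE 0.04, adjusted p = 3.47e-07). Zdbf2, a zinc finger gene of chromosome 1, went from 18.04 and 17.2 to 35.6 and 35.2 and then 47.7 and 47.1 TPM.

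The remaining members moved little or were low. Impact fell by 0.14 and then rose by 0.43 on the log2 scale, staying between 91.56 and 127.25 TPM in all 6 libraries. Mcts2 rose to 45.1 and 49.5 TPM at 24 h and was back at 33.0 and 34.6 at 48 h. Zrsr1 stayed between 13.79 and 16.55 TPM; its calls of -0.19 at 24 h and -0.18 at 48 h against 2i were lost without 24 h replicate 2 (adjusted p = 0.0659), and without 2i replicate 2 (0.0503) or 48 h replicate 1 (0.0544). Nap1l5 rose from 0.49 and 0.35 to 2.01 and 2.09 TPM at 24 h, and its later change of -0.26 was lost without any 1 of the 4 libraries (adjusted p from 0.0502 to 0.142). By expressed copy, 9 of 11 maternally read (81.8%) and 17 of 20 paternally read (85%) members tested were higher at 48 h than in 2i. Of all genes tested 45.1% were. The maternally read count includes Zim1 and the paternally read count Airn, both tested only through their 48 h libraries, so they had to differ.

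Genes that guard or write methylation moved in the same libraries. Zfp57 was at 327 TPM in 2i, 195 at 24 h and 92.5 at 48 h (log2 change over the course -1.81, adjusted p = 5.84e-08). The de novo methyltransferase genes Dnmt3a and Dnmt3b peaked at 24 h, at 450 and 355 TPM from 62.4 and 13.4 in 2i, and stood at 130 and 141 at 48 h. Dnmt1 was at 90.6 TPM in 2i and 89.6 at 48 h (adjusted p = 0.76), and Zfp445, a partner of ZFP57 in imprint upkeep, at 69.3 and 72.2 (adjusted p = 0.229). Of the 31 such regulators tested, 15 were higher and 10 lower at 48 h than in 2i, shares near those of all genes (45.1% and 30.8%). The part of these genes in the changes above was not tested.

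Markers of other cell types also moved over the course. Summed primitive endoderm markers (11 genes) were 12.1 to 13.1 TPM in 2i, 14 to 14.6 at 24 h and 57.2 to 64.4 at 48 h, and trophoblast markers (11 genes) were 98.4 to 102, 38.9 to 40.2 and 210.0 to 217. Fibroblast or feeder markers (12 genes) were 63.7 to 65.7, 35 to 36.1 and 48.6 to 51, with Lum at 0 in the 2i libraries. The first 2 lists were highest at 48 h, as H19 and Igf2 were, and their part in the changes was not tested. Median-of-ratios scaling moved the all-gene median by -0.11 from 24 to 48 h and by -0.10 from 2i to 48 h, where it left 23 members higher and 6 lower, and 26 higher and 5 lower.

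In epiLC carrying the β-catenin hairpin, more imprinted genes were higher than lower at both steps, and 10 and then 13 of the 32 tested did not pass. From 24 to 48 h, 20 of 32 tested members (62.5%) were higher and 2 (6.25%) lower, against 15.7% and 17.8% of 15304 genes tested. From 48 to 96 h, 18 (56.2%) were higher and 1 (3.12%) lower, against 25.2% and 9.83% of all genes. The members' median log2 changes were 0.45 and 0.26, beside -0.02 and 0.09 over all genes. With median-of-ratios scaling the later comparison had 15 members higher and 2 lower: Grb10, Peg10 and Snrpn lost their calls (adjusted p = 0.0709, 0.123 and 0.44) and Phlda2 gained one. Under that scaling the share of all called genes that were higher went from 71.9% to 51.8%. The 2 comparisons share the 48 h libraries, and no 2i library lies in this table.

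Markers of other cell types moved in the same libraries. Trophoblast markers summed to 62.3 to 66.6 TPM at 24 h, 76.2 to 78.8 at 48 h and 137 to 148 at 96 h, with 6 of 10 tested higher and 3 lower at the first step and 7 higher at the second. Primitive endoderm markers summed to 16.1 to 17.2, 21.7 to 24 and 35.1 to 40.7 TPM, with 1 and then 3 of 6 tested higher. Fibroblast or feeder markers summed to 28.3 to 30, 31.7 to 33.1 and 38.6 to 43.4 TPM, with 0 and then 3 of 5 tested higher. The 2-cell-like markers summed to 166 TPM in both 24 h libraries, 356 and 357 at 48 h and 406 to 445 at 96 h, with 9 and then 4 of 10 tested higher. The part of these in the members' changes was not tested.

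**Figure D2:**
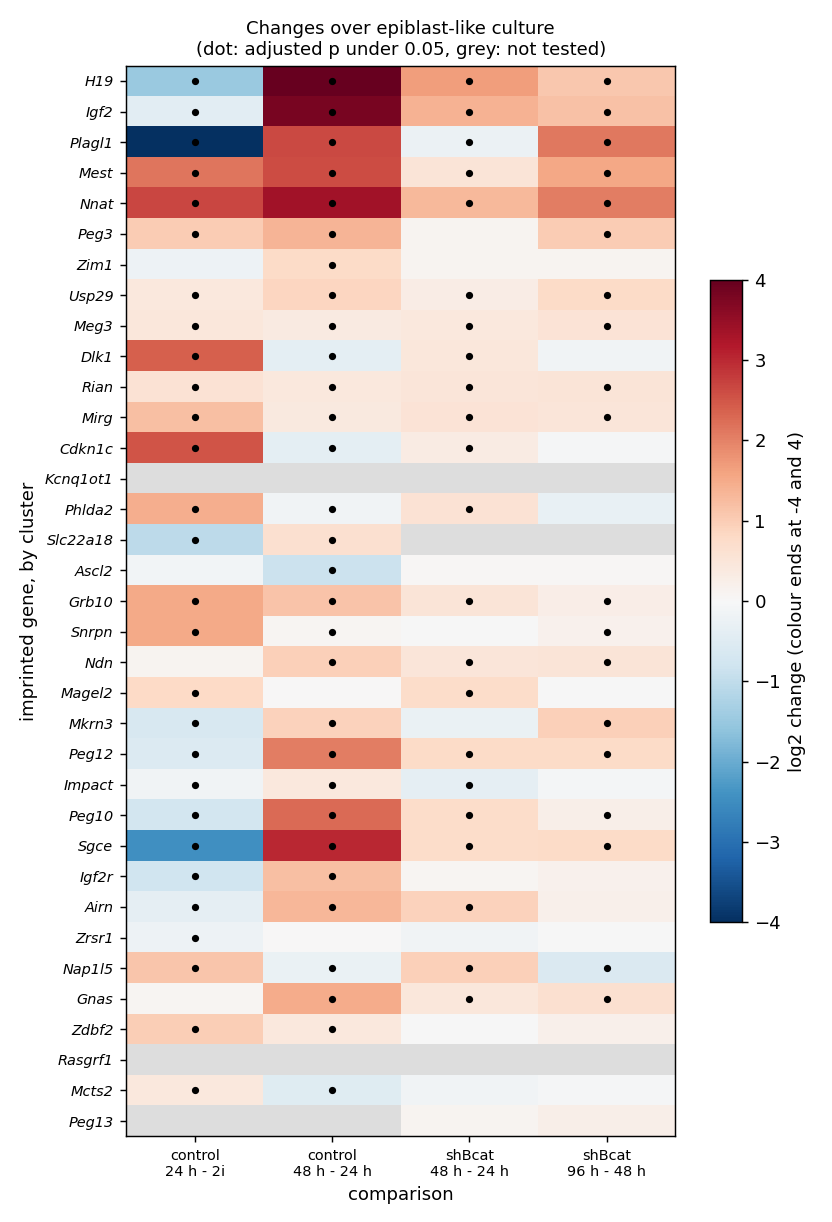
Log2 changes of the 35 imprinted genes between successive times, in control epiLC (first 2 columns) and shBcat epiLC (last 2 columns). Red is higher and blue lower at the later time, colour stops at -4 and 4, black dots mark an adjusted p under 0.05 and grey marks genes not tested; 24 of 32 members are higher in the second column and 20 of 32 in the third.

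H19 rose at both steps in these cells. Its libraries stood at 52.7 and 49.0 TPM at 24 h, 168 and 161 at 48 h and 326 and 378 at 96 h. The groups did not overlap. The log2 change was 1.68 (SE 0.08, adjusted p = 1.56e-05) and then 1.09 (SE 0.08, adjusted p = 0.00011). Igf2 was at 9.29 and 7, 22.5 and 22.5, and 46.8 and 57.9 TPM, with changes of 1.38 (SE 0.14, adjusted p = 0.000363) and 1.17 (SE 0.14, adjusted p = 0.00096).

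Mest and Nnat rose at both steps here too. Mest was at 162 and 169 TPM at 24 h, 243 and 238 at 48 h and 665 and 749.7 at 96 h, and Nnat at 7.55 and 5.98, 17.6 and 18.7, and 72.8 and 84.6. Neither gene's groups overlapped. The larger step was the later one for both, with log2 changes of 1.55 (SE 0.07, adjusted p = 1.32e-05) for Mest and 2.05 (SE 0.11, adjusted p = 3.78e-05) for Nnat.

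Plagl1 stayed low until 48 h and rose afterwards. It was at 6.22 and 6.38 TPM at 24 h, 5.02 and 5.31 at 48 h and 24.05 and 27 at 96 h. The 96 h libraries were apart from all others, with a change of 2.1 (SE 0.08, adjusted p = 9.1e-06). The earlier change of -0.24 was lost without any 1 of the 4 libraries (adjusted p from 0.1 to 0.195). Peg3 was at 80.5 and 85.4, then 87.7 and 90.8 TPM, a change that did not pass (log2 0.1, adjusted p = 0.376), and was then higher at 167 and 202 TPM (log2 change 1.03, SE 0.08, adjusted p = 0.000177).

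The 3 noncoding RNAs of the Dlk1-Meg3 cluster were higher at each time than at the one before. Meg3 stood at 268 and 283, 357 and 374, and 518 and 565 TPM, Rian at 330.2 and 333, 457 and 473, and 673 and 643, and Mirg at 56.2 and 53.9, 80.3 and 83.2, and 117 and 111. No 2 groups overlapped for any of them. Dlk1 was at 9.03 and 8.76, 11.3 and 14.1, and 10.4 and 12.3 TPM. Its change to 48 h, 0.46 (adjusted p = 0.0226), was lost without 24 h replicate 1 (0.0798), 24 h replicate 2 (0.099) or 48 h replicate 2 (0.14).

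Peg10, Sgce, Gnas and Grb10 were higher at each step, while Impact went the other way at the first. Peg10 went from 125 and 128 to 209 and 215 TPM (log2 change 0.74, SE 0.07, adjusted p = 0.000187) and then to 233 and 266, a change of 0.23 that was lost without 48 h replicate 1, 48 h replicate 2 or 96 h replicate 2 (adjusted p = 0.139, 0.0984 and 0.113). Sgce went from 6.43 and 6.02 to 11.2 and 10.7 and then 20.2 and 17.9 TPM, and Gnas from 218 and 211 to 293 and 289 and then 440.5 and 475. Grb10 was at 63.6 and 66.9, 98.6 and 89.0, and 114.01 and 114 TPM. Its later change of 0.28 was lost without 48 h replicate 2 (adjusted p = 0.105) or 96 h replicate 2 (0.0522). Impact, the gene lower at 48 than at 24 h in a call that held without each library, went from 144 and 138 to 107 and 115 TPM (log2 change -0.35, SE 0.06, adjusted p = 0.00273).

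Some calls in this table rested on single libraries. Cdkn1c (49.7 ± 1.39 to 62.2 ± 5.38 TPM, adjusted p = 0.0207) was lost without 24 h replicate 1, 24 h replicate 2 or 48 h replicate 1 (0.109, 0.067 and 0.137). Phlda2 (34.3 ± 2.03 to 51.6 ± 4.34 TPM) was lost without 24 h replicate 1 or 48 h replicate 1 (0.0589 and 0.0641), and Usp29 (2.75 ± 0.0141 to 3.62 ± 0.0495 TPM) without any 1 of the 4 libraries (0.0786 to 0.0962). From 48 to 96 h, Snrpn (116 ± 2.02 to 129 ± 3.87 TPM, adjusted p = 0.0448) was lost without 48 h replicate 1, 48 h replicate 2 or 96 h replicate 2 (0.12, 0.201 and 0.153). Nap1l5 (4.39 ± 0.495 to 2.58 ± 0.12 TPM), the member that was lower, was lost without 48 h replicate 2 (0.0569). Igf2r, at 15.5 and 15.2, 16.2 and 16.01, and 17.6 and 19.04 TPM, passed at neither step (adjusted p = 0.46 and 0.0605).

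Set side by side without a test, since they lie in different tables, the levels in control and shBcat epiLC were as follows. H19 at 24 h was at 3.18 and 3.23 TPM in the controls and 52.7 and 49.0 in shBcat. At 48 h the controls had 572 and 563 TPM of Mest and 96.3 and 96.7 of Nnat, and shBcat had 243 and 238 and 17.6 and 18.7. Plagl1 at 48 h was at 18.5 and 16.02 TPM in controls and 5.02 and 5.31 in shBcat. Table and hairpin cannot be told apart here.

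At 96 h, where both kinds of epiLC lie in 1 table, 4 of 32 tested imprinted genes (12.5%) were higher with shBcat and 0 were lower, against 2.29% higher and 2.54% lower among all genes tested. The 4 were Grb10, H19, Impact and Rian, and the members' median change was -0.01, as over all genes. No hairpin is named for these controls, so loss of β-catenin and carrying a hairpin cannot be told apart here. At an unadjusted p under 0.05, 15 of the 32 members passed and 20% of all genes. The 32 include Peg13 and Zim1, which reached the minimum only through the controls, where they were higher. That count is therefore not a fair match to the share of all genes.

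Grb10 was higher in both shBcat libraries than in both controls. It stood at 60.8 and 66.1 TPM in the controls and 114.01 and 114 with shBcat. The ratio was 1.79 (log2 change 0.83, SE 0.07, adjusted p = 0.000634). H19 stood at 199 and 213 TPM in the controls and 326 and 378 with shBcat, again without overlap, a ratio of 1.71 (log2 change 0.77, SE 0.08, adjusted p = 0.00194). These 2 calls held without each library.

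Impact and Rian were called on smaller changes. Impact was at 83.7 and 78.8 TPM in the controls and 103 and 106 with shBcat (log2 change 0.36, SE 0.06, adjusted p = 0.0119), and the call was lost without control replicate 2 (0.0705) or shBcat replicate 2 (0.0565). Rian was at 581 and 545 TPM in the controls and 673 and 643 with shBcat (log2 change 0.22, SE 0.05, adjusted p = 0.0422), lost without any 1 of the 4 libraries (0.0521 to 0.167). The Rian call was also lost with median-of-ratios scaling (0.0597), and both calls were lost when the 96 h groups were fitted alone (Impact 0.0734, Rian 0.214). The neighbouring genes Igf2 and Meg3 did not pass. Igf2, beside H19, was at 42.6 and 48.6 TPM in the controls and 46.8 and 57.9 with shBcat (adjusted p = 0.518), and Meg3, beside Rian, at 428 and 486 and at 518 and 565 (adjusted p = 0.105). Mest was at 817 and 879.55 TPM in the controls and 665 and 749.7 with shBcat (log2 change -0.26, adjusted p = 0.068).

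Among the regulators, Zfp57 was at 87.8 TPM with shBcat against 72.6 in controls (log2 change 0.27, adjusted p = 0.0467) and Dnmt3l, a cofactor of the de novo methyltransferases, at 158 against 94.5 (log2 change 0.73, adjusted p = 0.000771). The other 29 of 31 tested did not pass. Summed fibroblast or feeder markers were 38.6 to 43.4 TPM with shBcat and 36.2 to 40.5 in controls, with Postn at 0 in controls. Primitive endoderm markers were 35.1 to 40.7 and 38.4 to 39.1. Trophoblast markers were 137 to 148 with shBcat and 170.0 to 175 in controls, with 2 of 10 tested lower. The part of these in the 4 calls was not tested.

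In V6.5 cells in 2i medium, the β-catenin hairpin came with 3 of 25 tested imprinted genes (12%) higher and 1 (4%) lower, against 3.51% and 5.21% of 14407 genes tested. H19, Grb10 and Snrpn were higher and Plagl1 was lower. The median log2 change of the members was 0.13 and that of all genes 0.01.

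**Figure D3:**
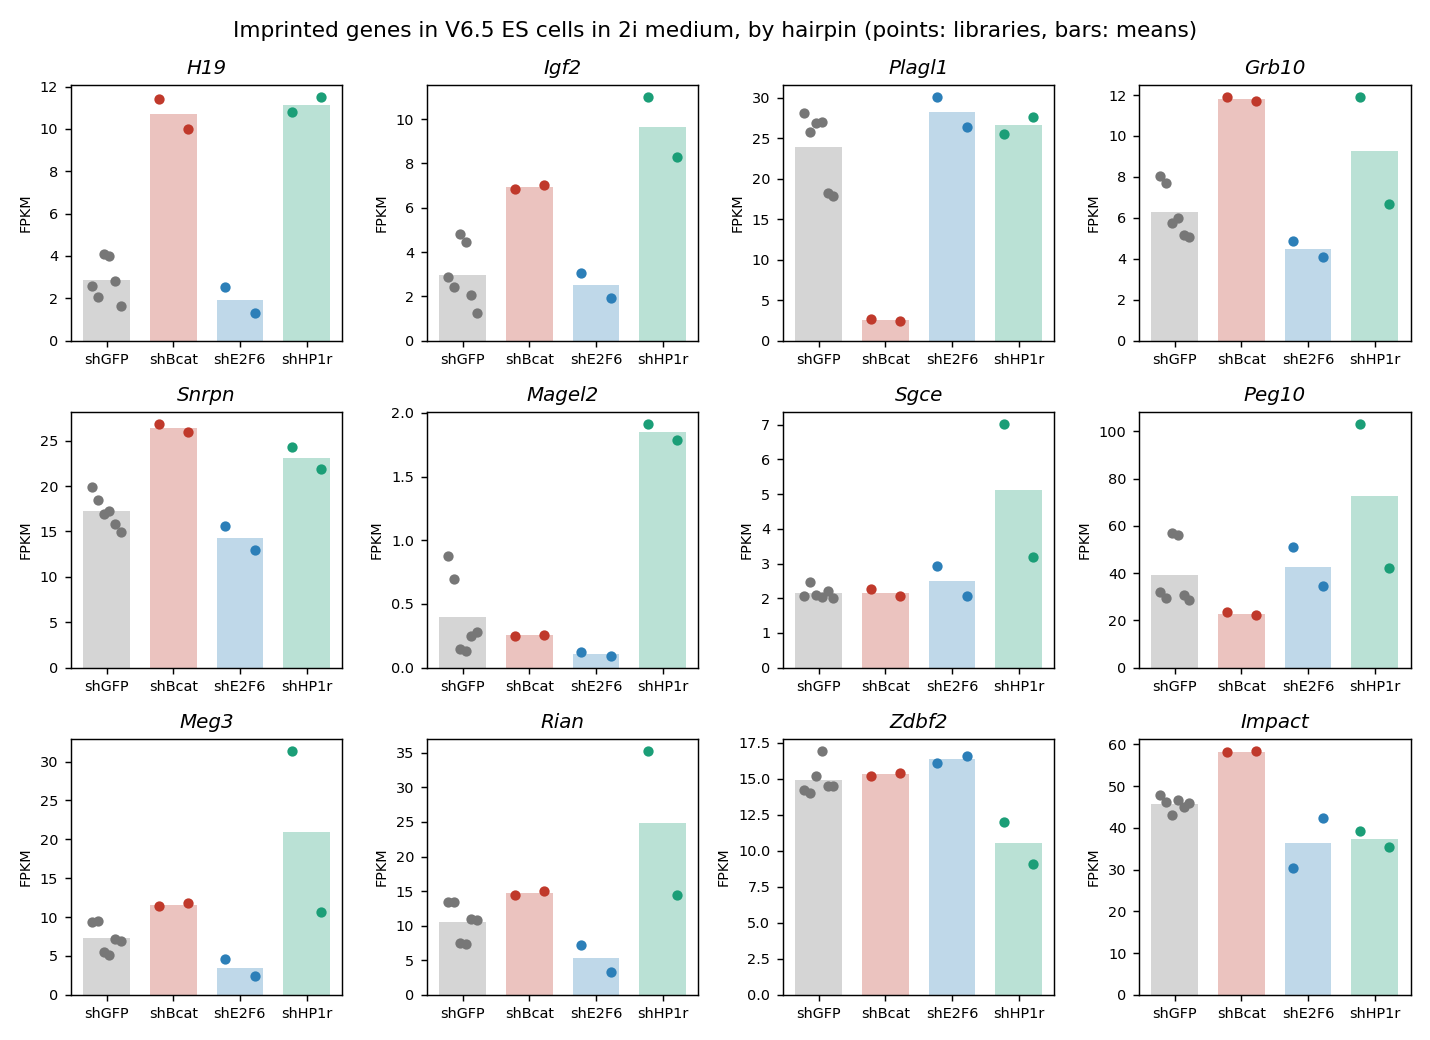
FPKM of 12 imprinted genes in V6.5 ES cells in 2i medium, by hairpin. Points are libraries (6 for shGFP, 2 for each other hairpin) and bars are group means, on axes that start at 0; Plagl1 is at 2.72 and 2.46 in shBcat and between 17.9 and 30.1 elsewhere, and the 2 shHP1r libraries lie far apart for Peg10, Meg3 and Rian.

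Plagl1 fell the most. Its shGFP libraries ranged from 17.9 to 28.1 FPKM with a median of 26.4, and its shBcat libraries stood at 2.72 and 2.46. The groups were far apart, and shE2F6 (30.1 and 26.4) and shHP1r (25.5 and 27.7) lay in or near the shGFP range. The shBcat level was 0.108 times the control level (log2 change -2.78, SE 0.18, adjusted p = 1.58e-05), a call that held without each library.

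H19 went the other way. The shGFP libraries ranged from 1.63 to 4.1 FPKM with a median of 2.7, and shBcat stood at 11.4 and 10. Igf2 ranged from 1.26 to 4.83 FPKM (median 2.64) in shGFP and stood at 6.86 and 7.04 in shBcat. Neither gene's groups overlapped. H19 was 3.74-fold higher (log2 change 1.64, SE 0.25, adjusted p = 0.00311), a call lost without shBcat replicate 1 (0.0721). Igf2, at a ratio of 2.34, did not pass (log2 change 1.08, SE 0.32, adjusted p = 0.0634). It passed without shGFP replicate 3 or shGFP replicate 4.

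Grb10 and Snrpn were higher by smaller amounts. Grb10 ranged from 5.05 to 8.02 FPKM (median 5.86) in shGFP and was at 11.9 and 11.7 in shBcat, and Snrpn ranged from 14.9 to 19.9 (median 17) and was at 26.8 and 26. The groups were apart for both. Grb10 was 1.88-fold higher (log2 change 0.83, SE 0.21, adjusted p = 0.0341) and Snrpn 1.53-fold (log2 change 0.6, SE 0.12, adjusted p = 0.011). Grb10 was lost without shGFP replicates 4, 5 or 6 in turn (0.0507, 0.0605 and 0.0593), shBcat replicate 1 (0.275) or shBcat replicate 2 (0.251), and Snrpn without shBcat replicate 1 (0.158) or 2 (0.126).

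The remaining 21 tested members did not pass. Gnas was at 14.9 and 15.1 FPKM in shBcat against 7.51 to 12.7 in shGFP (adjusted p = 0.0698), and it passed without shGFP replicate 1 or shGFP replicate 2. Meg3 was at 11.4 and 11.8 against 5.11 to 9.51 (adjusted p = 0.325), Peg3 at 14.8 and 14.9 against 8.55 to 11.7 (0.305), and Peg10 at 23.4 and 22.4 against 28.5 to 57.1 (0.306). Each of these 4 genes had groups that did not overlap. Mest (17.3 and 18.6 against 13.9 to 30.7 FPKM) and Igf2r (20.3 and 19.3 against 14.8 to 20.6) overlapped with the controls. Dnmt3l was at 31.5 FPKM in shBcat against 11.2 (log2 change 1.43, adjusted p = 0.0368), Tet2 at 7.91 against 17.2 (log2 change -1.01, adjusted p = 0.011) and Zfp57 at 93.7 against 84.4 (adjusted p = 0.572). Summed 2-cell-like markers were 9.34 to 9.4 FPKM in shBcat and 95.3 to 119 in shGFP, and fibroblast or feeder markers 8.91 to 9.32 and 11.2 to 19.2, on 5 of 12 genes. Epiblast-like markers were 27.3 to 29.6 in shBcat and 13.1 to 20.8 in shGFP, and primitive endoderm markers 8.44 to 8.66 and 2.61 to 7.65. Trophoblast markers were 62.1 to 64.6 in shBcat and 42.4 to 58.6 in shGFP, with 3 of 7 tested higher and 1 lower. Their part was not tested.

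The 6 shGFP libraries lay in 3 close pairs, 1 with 2, 3 with 4 and 5 with 6, as Mest at 14.8 and 14.6, 30.4 and 30.7, and 13.9 and 14.3 FPKM shows. Leaving out 1 library keeps the other of its pair. A call that held without each library, as for Plagl1 above and H19 with shHP1r below, is thus not shown to hold without each pair. With libraries averaged in pairs, which leaves 1 value for each other hairpin, 0 members were called in any of the 4 comparisons of this table. All genes together then gave 0 calls in the 3 comparisons with shGFP and 147 between shHP1r and shBcat, so the count says nothing particular to the members. Leaving out shGFP 3 and 4, the pair with high mitochondrial shares, gave 5 members higher and 2 lower with shBcat, against 6.28% and 13.5% of all genes, the additions being Slc22a18, Igf2 and Mkrn3.

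With shHP1r, 4 of 25 tested members (16%) were higher than in shGFP and 1 (4%) lower, against 5.89% and 1.70% of all genes. H19, Igf2, Magel2 and Sgce were higher and Zdbf2 lower. The members' median change was 0.41 and that of all genes 0.04. With median-of-ratios scaling 5 were higher and 0 lower, as Zdbf2 lost and Meg3 gained a call. The shHP1r and shBcat comparisons share the shGFP libraries, so that both show H19 higher is no independent repeat.

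H19 was at 10.8 and 11.5 FPKM in shHP1r against 1.63 to 4.1 in shGFP, without overlap (log2 change 1.69, SE 0.25, adjusted p = 0.00191). That call held without each library. Igf2 was at 11 and 8.29 against 1.26 to 4.83 (log2 change 1.49, SE 0.32, adjusted p = 0.0178) and was lost without shHP1r replicate 1 (0.233). Magel2, a gene of the Snrpn cluster that works in protein recycling, was at 1.91 and 1.79 against 0.131 to 0.873 (log2 change 1.06, SE 0.19, adjusted p = 0.00568) and was lost without shHP1r replicate 1 (0.0845). Magel2 reached 1 FPKM only in the 2 shHP1r libraries and was tested only through them, so it had to differ, and without it 3 members were higher.

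The shHP1r libraries themselves differed widely. Peg10 was at 103 FPKM in replicate 1 and 42.2 in replicate 2, Meg3 at 31.3 and 10.6, Rian at 35.2 and 14.5 and Peg3 at 25.6 and 7.77. Sgce, at 7.01 and 3.2 against 2.02 to 2.48 in shGFP (log2 change 0.88, SE 0.2, adjusted p = 0.0232), was lost without shHP1r replicate 1 (0.256). Zdbf2, at 12 and 9.06 against 14 to 16.9 (log2 change -0.47, SE 0.11, adjusted p = 0.0247), was lost without shHP1r replicate 2 (0.154). Without shHP1r replicate 2, 10 members were higher and 0 lower, among them Meg3, Rian, Peg3, Ndn, Grb10 and Cdkn1c, against 7.84% and 2.96% of all genes. Without shHP1r replicate 1, 1 was higher and 1 lower, against 2.69% and 0.229%. The same 2 libraries had summed naive ES markers of 716 and 1130 FPKM, epiblast-like markers of 25.1 and 15.3 and primitive endoderm markers of 13.8 and 8.74, in that order. The part of these in the gap was not tested.

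Summed 2-cell-like markers were 475 to 579 FPKM in shHP1r, above the 95.3 to 119 of shGFP, with 10 of 10 genes higher. Dnmt1 (47.4 against 63.1 FPKM, log2 change -0.4, adjusted p = 0.0324), Uhrf1, which brings DNMT1 to newly copied DNA (55.6 against 76.2, log2 change -0.45, adjusted p = 0.0223), and Tet1 (24.0 against 34.2, log2 change -0.52, adjusted p = 0.0461) were lower, among 5 of 30 tested regulators. Zfp57 was at 94.1 against 84.4 FPKM (adjusted p = 0.574). The part of these was not tested.

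Compared directly, shHP1r and shBcat differed in 5 of 25 members, with 3 (12%) higher in shHP1r and 2 (8%) lower, against 6.97% and 2.34% of all genes. Plagl1 differed most, at 25.5 and 27.7 against 2.72 and 2.46 FPKM (log2 change 2.94, SE 0.22, adjusted p = 7.96e-06), and held without each library. Magel2 (1.91 and 1.79 against 0.248 and 0.26) and Sgce (7.01 and 3.2 against 2.26 and 2.06) were higher, and Impact (39.2 and 35.3 against 58.1 and 58.3) and Zdbf2 (12 and 9.06 against 15.2 and 15.4) lower. Without Magel2, tested only through shHP1r as above, 2 members were higher. All 4 were lost without shBcat replicate 1 or shBcat replicate 2 (adjusted p from 0.0611 to 0.257), leaving 1 call each time. Magel2 and Sgce were also lost without shHP1r replicate 1 (0.0518 and 0.243), and Impact and Zdbf2 without shHP1r replicate 2 (0.0749 and 0.154). H19 was at 10.8 and 11.5 in shHP1r and 11.4 and 10 in shBcat, groups that overlapped. With median-of-ratios scaling 4 members were higher and 1 lower.

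With the E2F6 hairpin, 0 of 25 tested members passed the limma test in either direction, against 0.410% of all genes higher and 0.652% lower, and 5 of the 25 members had an unadjusted p under 0.05, against 33.7% of all genes. The median change of the members was -0.30 and that of all genes -0.20. Median-of-ratios scaling moved the all-gene median by 0.18 and turned the split of all called genes from 38.6% to 63.3% higher, with 0 members called. Meg3 was at 4.65 and 2.37 FPKM and Rian at 7.17 and 3.37 in shE2F6, against 5.11 to 9.51 and 7.37 to 13.5 in shGFP (adjusted p = 0.122 and 0.11). Both genes lay under every control library, and the nearest controls were libraries 3 and 4, which share the high mitochondrial share of shE2F6. Impact was at 30.3 and 42.3 against 43.1 to 47.8 FPKM (adjusted p = 0.0946). H19 (2.55 and 1.3 FPKM) and Plagl1 (30.1 and 26.4) overlapped the controls or lay next to them. Without shGFP replicate 3, Slc22a18 and Impact were lower, as were 24.5% of all genes, and with shGFP libraries 3 and 4 alone as controls 0 members and 1.12% of all genes passed.

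In QKO cells the β-catenin hairpin came with 0 of 27 tested members higher and 1 (3.7%) lower, against 0.585% and 1.56% of 15562 genes. The member was Sgce, and the median change was -0.17 beside -0.04 over all genes. Median-of-ratios scaling left 1 member lower, with the share of all called genes that were higher going from 27.2% to 47.1%. At an unadjusted p under 0.05, 14 of the 27 members passed and 28.7% of all genes. The 27 include Airn, Ascl2 and Usp29, which reached the minimum only through the group where they were higher. That count is therefore not a fair match to the share of all genes.

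Sgce was at 4.32, 4.77 and 3.99 TPM with shBcat and 7.93, 9.78 and 6.62 with shGFP. The groups did not overlap, and the shBcat level was 0.538 times the control level (log2 change -0.75, SE 0.14, adjusted p = 0.047). The call was lost without shBcat replicate 1 (0.0594), 2 (0.157) or 3 (0.138) and without shGFP replicate 1 (0.138) or 2 (0.0605). Without shGFP replicate 3, 5 members were lower, against 4.68% of all genes, the additions being Grb10, Gnas, Mest and Peg10, and without shGFP replicate 2 the 1 member lower was Grb10. Peg10, which shares its start region with Sgce, was at 21.3, 22.8 and 22.8 against 31.1, 35.3 and 27.4 TPM (log2 change -0.46, SE 0.09, adjusted p = 0.051).

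H19, Igf2 and Grb10 lay lower with shBcat than with shGFP in QKO cells, without passing. H19 was at 3.15, 4.28 and 5.19 TPM against 6.53, 10.02 and 5.31 (log2 change -0.65, SE 0.23, adjusted p = 0.127), and Igf2 at 1.89, 1.19 and 1.61 against 2.1, 3.65 and 2.24 (-0.5, SE 0.19, adjusted p = 0.137). Grb10 was at 22.9, 19.97 and 21.4 against 34.1, 50.9 and 30.5 TPM (-0.78, SE 0.18, adjusted p = 0.0627). None of the 3 had overlapping groups, and shGFP replicate 2 was the highest library for each. Plagl1 was low in all 6 QKO libraries, at 3.58, 2.55 and 2.66 TPM with shBcat and 3.51, 4.03 and 3.19 with shGFP, which overlapped (adjusted p = 0.305). Meg3, at 259, 282 and 293 against 229, 269.6 and 249 TPM, overlapped too (adjusted p = 0.191), as did Peg3 at 13.5, 14.9 and 16 against 14.3, 15.1 and 15 (adjusted p = 0.981).

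Fibroblast or feeder markers moved with these values. Their sum over 12 genes was 89.4, 111 and 118 TPM with shBcat and 347, 568 and 262 with shGFP, replicate 2 being the highest, and 4 of 11 tested were lower with shBcat. Primitive endoderm markers summed to 34.8 to 49.6 with shBcat and 60.6 to 110.0 with shGFP. Their part in the lower values of Sgce, H19, Igf2 and Grb10 was not tested. Zfp57, at 592 against 603 TPM (adjusted p = 0.705), Dnmt1, at 137 against 123 (0.122), and Trim28, at 1500 against 1600 (0.106), did not pass, and 1 of 30 tested regulators was lower.

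**Figure D4:**
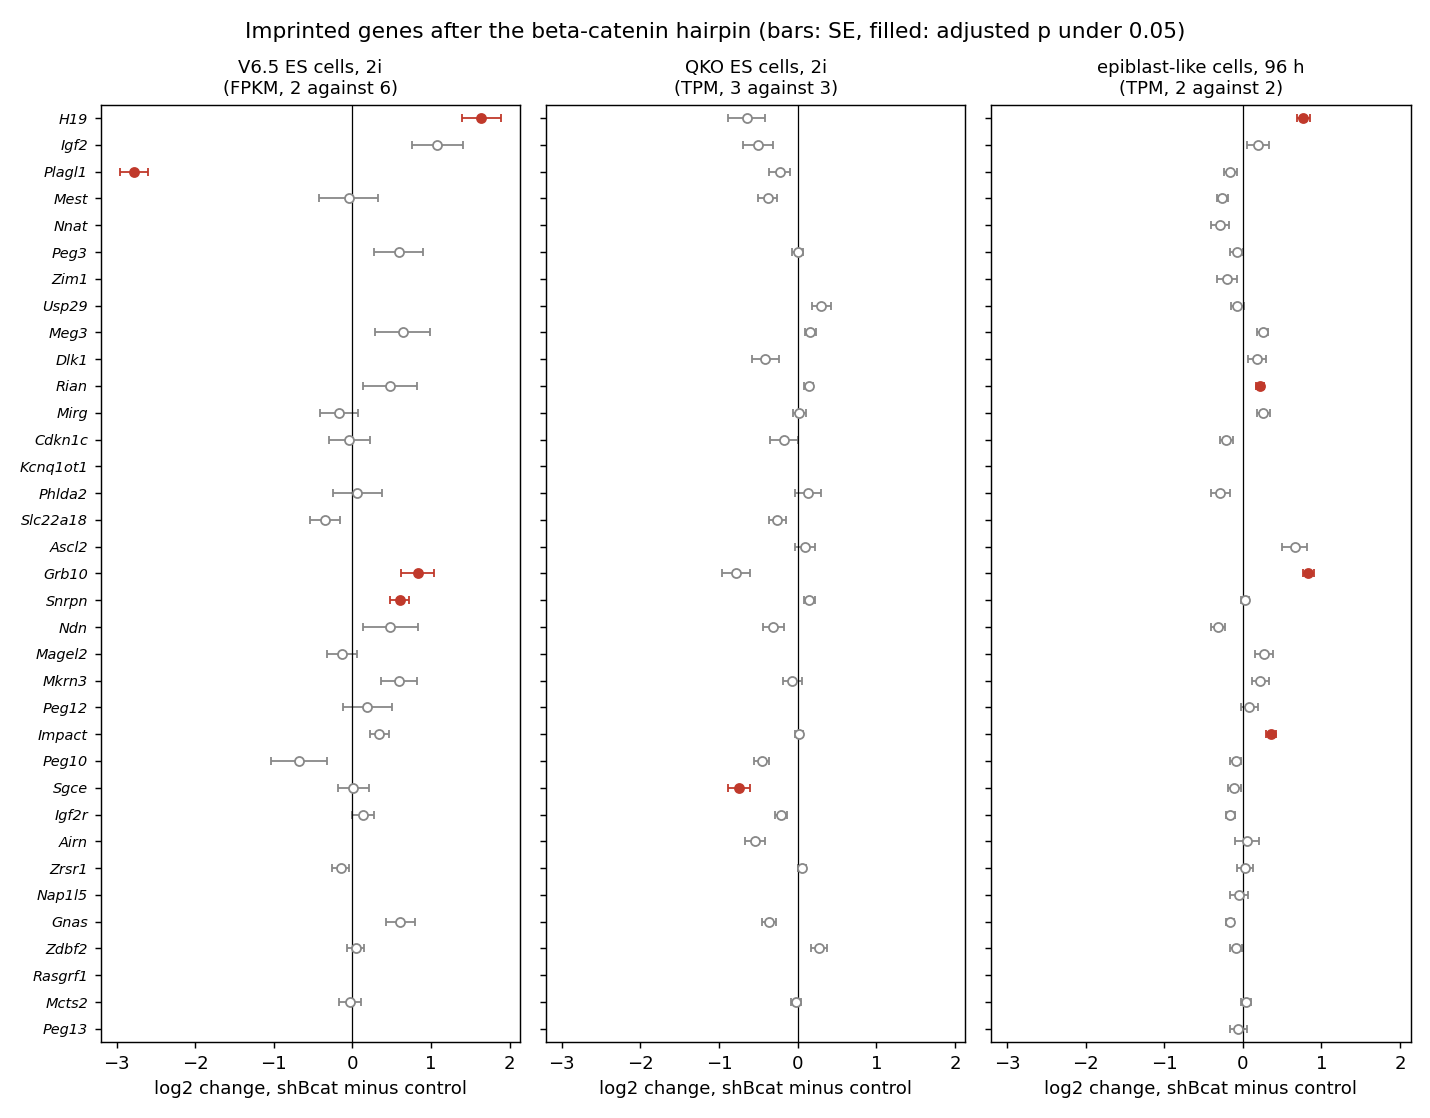
Log2 change of each tested imprinted gene with the β-catenin hairpin against its own controls, with SE, in V6.5 cells in 2i medium (left), QKO cells in 2i medium (middle) and epiLC at 96 h (right). Filled red points have an adjusted p under 0.05; H19 and Grb10 are filled on the right of 0 in the left and right panels and open on the left of 0 in the middle panel.

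Across the 3 comparisons of shBcat with its own controls, which share no libraries, Grb10 and H19 were called higher in V6.5 cells in 2i medium and in epiLC at 96 h. The controls are not alike: they carried shGFP in V6.5 and QKO cells, while no hairpin is named for the 96 h controls. In QKO cells both lay under every control without passing, at -0.78 and -0.65 on the log2 scale. The V6.5 call of Grb10 was lost in 8 of 19 alternative settings and that of H19 in 2. Plagl1 was called only in the V6.5 comparison in 2i, at -2.78, and was at -0.23 in QKO cells and -0.16 in epiLC at 96 h, where its controls stood at 29.5 and 27.8 TPM. Whether the changes differ between these settings was not tested, since the values lie in separately normalized tables.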

How the data were processed

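RNA-seq of 32 of the series' 50 samples was used, and 18 chromatin samples were left out. RNA was, per the labels' protocols, taken up in TRIzol, treated with DNase and made into TruSeq libraries. Per the submitters' processing notes the reads were on build mm10 and the tools named are bcl2fastq 2.18, TopHat2 2.0.13, Cufflinks 2.2.1 and Bowtie2 for some samples and STAR and RSEM for others, with further versions not given in the sources used here. The V6.5 hairpin table was deposited as FPKM and the other 3 tables were deposited as TPM. Neither unit keeps depth, so precision rests on the replicates. A total of 1 column of per-sample values matched no sample and was not used.

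Values were taken to log2(value + 1), genes reaching 1 in 2 or more libraries of a table were kept, and limma 3.58.1 in R 4.3.3 (variance trend and robust moderation, statmod 1.5.0) was fitted to all groups of a table together, with two-sided tests, Benjamini-Hochberg adjustment over all genes tested and a threshold of 0.05. The steps were checked on simulated data. The members and all gene lists (regulators of imprints, further imprinted genes, and markers of naive ES cells, shared pluripotency, epiblast-like cells, primitive endoderm, trophoblast, fibroblasts or feeders and 2-cell-like cells) were chosen with earlier results of these data known. All libraries are given for members called in a table and for 15 further fixed names. Of the regulators 11 fixed names could be given, and of the further imprinted genes up to 4 with the smallest p in a comparison. Alternatives were a pseudocount of 0.1, no filter, a minimum of 5, no trend or robust moderation, the compared groups fitted alone, median-of-ratios scaling, a 2-fold minimum, a replicate block and each library left out in turn, and for the V6.5 hairpin table libraries averaged in pairs, a term for the libraries of high mitochondrial share, and shGFP libraries 3 and 4 left out.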

Additional observations from a re-analysis of the deposited data

Results flagged for a closer look

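With the β-catenin hairpin Gnas, Grb10, H19 and Igf2 lay above all their controls in every V6.5 library in 2i medium and under all their controls in every QKO library. How many of all genes do so was not counted, so these are single cases and no result about the members as a set. The log2 changes in V6.5 and QKO cells were 0.61 and -0.36 for Gnas, 0.83 and -0.78 for Grb10, 1.64 and -0.65 for H19 and 1.08 and -0.50 for Igf2. In epiLC at 96 h the changes were 0.83 for Grb10 and 0.77 for H19, on the side of the V6.5 cells, and -0.16 for Gnas, on the side of the QKO cells. Usp29 was at 0.30 in QKO cells and -0.07 in epiLC at 96 h. In QKO cells it reached 1 TPM only with shBcat and was tested only through those libraries, so it had to differ there. These values lie in separately normalized tables, and the differences between settings were not tested.

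From 24 to 48 h, some members differed in one direction in every control epiLC library and in the other direction in every shBcat epiLC library. How many of all genes do so was not counted, so these too are single cases. The log2 changes in control and shBcat epiLC were 2.63 and -0.24 for Plagl1, 0.93 and -0.28 for Mkrn3 and 0.43 and -0.35 for Impact. They were -0.40 and 0.32 for Cdkn1c, -0.38 and 0.46 for Dlk1, -0.26 and 0.94 for Nap1l5 and -0.15 and 0.57 for Phlda2. The control calls of Phlda2 and Nap1l5 and the shBcat call of Plagl1 were lost without any 1 library, as given above. The shBcat calls of Cdkn1c, Dlk1 and Phlda2 were lost without some, and Mkrn3 did not pass in shBcat. The differences between control and shBcat were not tested either, and table and hairpin cannot be told apart.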

How the results depend on the processing

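The 5 time comparisons called 28 (24 h against 2i), 30 (48 h against 24 h), 31 (48 h against 2i), 22 (shBcat 48 h against 24 h) and 19 (shBcat 96 h against 48 h) members. A 2-fold minimum left 14, 13, 19, 3 and 6. For 24 h against 2i it left 17.8% of all genes, from 76% in the main fit. The other counts of this paragraph stand without such a share and are no result about the members as a set. Leaving out each library in turn gave 26 to 28, 27 to 27, 29 to 31, 17 to 19 and 15 to 21, with 25, 27, 29, 17 and 15 of the calls held without every library. At 96 h (4 called) the count was 2 with no filter, 2 with the groups fitted alone, 0 with a 2-fold minimum and 3 to 4 with a library left out.

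For shBcat in V6.5 cells (4 called) the count was 2 with a 2-fold minimum, 0 with averaged pairs, 7 with the mitochondrial term, 7 without shGFP 3 and 4, and 1 to 5 with a library left out. For shHP1r (5 called) it was 3 with a minimum of 5, 2 with the groups fitted alone, 3 with a 2-fold minimum, 0 with averaged pairs, 8 with the mitochondrial term and 2 to 10 with a library left out. For shHP1r against shBcat (5 called) it was 3 with a minimum of 5, 2 with a 2-fold minimum, 0 with averaged pairs, 8 with the mitochondrial term and 1 to 5 with a library left out. For shE2F6 (0 called) it was 0 to 2 with a library left out, the 2 beside 28.9% of all genes called. In QKO cells (1 called) it was 2 with a pseudocount of 0.1, 2 with a minimum of 5, 0 with no filter, 0 without trend and robust moderation, 0 with a 2-fold minimum and 0 to 5 with a library left out. A 2-fold minimum and averaged pairs call fewer by construction. Sgce and Magel2, the calls lost with a minimum of 5 in both shHP1r comparisons, were too low to be tested under it. The share of all genes called moved too. With the mitochondrial term it went from 8.71% to 24.1% for shBcat and from 7.59% to 22.9% for shHP1r. For shHP1r against shBcat it went from 9.31% to 26.5%. Without shGFP 3 and 4 it was 19.8% for shBcat. For shHP1r it was 5.08% with a minimum of 5 and 3.88% with the groups fitted alone. For shHP1r against shBcat it was 7.75% with a minimum of 5. In QKO cells it was 2.15% in the main fit, 3.66% with a pseudocount of 0.1 and 7.71% with a minimum of 5. The cause of the other moves was not tested.

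The replicate block gave 6 members for shBcat, 10 for shE2F6, 3 for shHP1r, 7 for shHP1r against shBcat, 1 in QKO cells, 28, 29, 31, 22 and 19 in the time comparisons and 7 at 96 h. In the V6.5 hairpin table only shGFP has libraries numbered 3 to 6, so the block fits each of those alone. That leaves shGFP 1 and 2 as the only controls, at 8.92% and 8.26% mitochondrial share beside 22.9% and 22.3% in shE2F6. The block counts against shGFP therefore rest on other controls than the main fit and do not measure pairing. For shE2F6 the block called 53.3% of all genes, a larger share than its 10 of 25 members; all-gene shares were 10.8% for shBcat, 4.23% for shHP1r, 23% for shHP1r against shBcat and 5.04% at 96 h. Libraries of the same number did not deviate together in every pair. The correlations ran from -0.02 to 0.09, -0.10 to 0.28, -0.04 to 0.13 and -0.14 to 0.17 in the control time course, knockdown epiLC, QKO and V6.5 hairpin tables. The 0.28 was between control and shBcat at 96 h. In a group of 2 libraries the deviations mirror each other, so these correlations cannot decide whether the numbers pair the libraries.

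Of 149 results of single genes under 1836 settings in all, 1612 kept their call, 223 lost it and 1 reversed: Snrpn from 24 to 48 h in control epiLC turned to -0.05 (adjusted p = 0.174, limma) with median-of-ratios scaling.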

Other observations

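A further 58 imprinted gene names outside the set described above were looked up in the same tables. In control cells at 48 h against 2i, 20 of 39 tested were higher and 15 lower, against 45.1% and 30.8% of all genes tested. Cobl, which encodes an actin nucleator, was at 45.9 ± 0.177 TPM in 2i, 9 ± 0.219 at 24 h and 3.45 ± 0.0141 at 48 h (SD, n = 2; log2 change over the course -3.4, SE 0.05, adjusted p = 2.05e-08, limma). Snurf, which shares its transcript with Snrpn and may share its reads, was at 55.6, 157 and 180 TPM. H13, a signal peptide peptidase gene, was at 15.1 TPM in 2i and 42.6 at 48 h. Ddc, the aromatic amino acid decarboxylase gene beside Grb10, was at 18.8, 26.6 and 5.14 TPM, so it was higher at 24 h and lower at 48 h, while Grb10 rose at each step. From 24 to 48 h in shBcat epiLC 9 of 40 tested were higher and 8 lower, against 15.7% and 17.8% of all genes, and from 48 to 96 h 6 were higher and 7 lower, against 25.2% and 9.83%. Cobl was lower at both of these steps, at 13.7, 3.9 and 2.21 TPM, as was Ddc, at 31.1, 17.3 and 9.67.

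With hairpins in V6.5 cells in 2i medium, shBcat had 3 of these genes higher and 2 lower of 31 tested, against 3.51% and 5.21% of all genes. Cobl was at 10.4 ± 0.141 FPKM (n = 2) against 22.3 ± 1.84 in shGFP (n = 6; log2 change -1.03, SE 0.1, adjusted p = 0.000165, limma) and Atp10a, a phospholipid transporter gene, at 4.95 ± 0.198 against 2.14 ± 0.3 (log2 change 0.93, SE 0.14, adjusted p = 0.00261, limma). shHP1r also had 3 higher and 2 lower, against 5.89% and 1.70%, with Cobl at 14 and Atp10a at 5.49 FPKM, on the same shGFP libraries. shE2F6 had 1 higher and 0 lower, against 0.410% and 0.652%: Sfmbt2, a Polycomb-related gene, at 21.9 ± 2.4 against 10.4 ± 2.05 FPKM (log2 change 1.02, SE 0.18, adjusted p = 0.0354, limma). Directly against shBcat, shHP1r had 4 higher and 0 lower of 31 tested, against 6.97% and 2.34% of all genes: Pon2, Gatm, Dio3 and Casd1. In QKO cells 1 of 41 tested was lower with shBcat, against 1.56% of all genes: Dcn, at 6.45 against 33.5 TPM (adjusted p = 0.0408, limma). Dcn is also a fibroblast gene, and the summed fibroblast or feeder markers of these libraries were 89.4 to 118 TPM with shBcat and 262 to 568 with shGFP; their part in the Dcn call was not tested. At 96 h 1 of 40 tested was higher with shBcat, against 2.29% of all genes: again Dcn, at 1.25 against 0.545 TPM (adjusted p = 0.0365, limma).

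Of the regulators of DNA methylation, 18 of 31 were higher and 9 lower in the controls at 24 h, against 36.2% and 39.8% of all genes, and 9 were higher and 19 lower from 24 to 48 h, against 45.2% and 28.9%. Dppa3, which shields DNA from methylation in the egg, was at 88, 10.9 and 9.75 TPM in 2i and at 24 and 48 h. Tet2, which encodes an enzyme that oxidizes methylcytosine, was at 75, 23.8 and 10.6 TPM. Trim28 was at 653, 1640 and 830 TPM and Dnmt3l at 39.8, 252 and 55.1, both highest at 24 h. In shBcat epiLC at 24, 48 and 96 h Zfp57 was at 214, 104 and 87.8 TPM and Dnmt3l at 453, 292 and 158, and each step was lower than the one before for both genes. There 4 regulators were higher and 16 lower of 31 tested from 24 to 48 h, against 15.7% and 17.8% of all genes, and 6 were higher and 10 lower from 48 to 96 h, against 25.2% and 9.83%. The 4 markers shared by naive and later pluripotent cells had 3 higher and 1 lower in control cells at 24 h against 2i, and 0 higher and 3 lower from 24 to 48 h.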
